A study of Mus musculus with 2 samples.

Results

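A set of 10 genes of the erythropoietin and KIT pathways were examined in a map of EP300 binding in fetal mouse liver. They are the receptor genes Epor and Kit, the kinase genes Jak2 and Lyn, the transcription factor genes Stat5a and Stat5b, and 4 genes known as targets of the pathway, Cish, Socs3, Bcl2l1 and Pim1. Their peaks were those of the authors' list of reproducible ("optimal") peaks whose summit lay inside the gene or within 50 kb of any of its annotated transcription start sites (TSSs), or within 150 kb for Kit. This gave 50 of the 17043 optimal peaks on the chromosomes, for 10 of 21755 protein-coding genes. The map comes from chromatin immunoprecipitation and sequencing (ChIP-seq) with an antibody against EP300 in 2 libraries, replicates 1 and 2 of 1 group. Both came from pulverized livers of B6NCrl embryos aged 14.5 days, male and female together, pooled over several dissections. There was no other genotype, age or tissue, and nothing in the labels says that the libraries came from different animals, so the spread between them may be technical.

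Erythropoietin binds its receptor EPOR on red cell precursors and activates the kinase JAK2, which is bound to the receptor. JAK2 phosphorylates STAT5A and STAT5B, which enter the nucleus and bind GAS sites, a palindrome written TTCNNNGAA. KIT is the receptor for stem cell factor; it acts with EPOR in early erythroid progenitors and is lost as they mature. EP300 is a histone acetyltransferase and coactivator that is recruited by DNA-bound factors to enhancers and promoters. In fetal liver, the main site of red cell formation at this age, GATA1 is the leading factor of the erythroid lineage, and its site is written here as AGATAA, with T also allowed as the first letter and G as the last, on either strand.

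The sequences around the summits that the results turn on are shown first, as the summit base with 50 bases on each side or, at Cish, 30 bases at each of 2 pairs of sites (mm10, plus strand, 5′ to 3′). They were chosen to set the strongest peaks at Epor, Kit, Jak2, the STAT5 genes and Bcl2l1 beside peaks with GAS sites at Pim1 and Cish. Capitals mark GATA motifs on either strand and GAS motifs; in the first sequence alone they mark CACC boxes, the sites of Krüppel-like factors (CCNCNCCC).
Epor, downstream of the first exon, chr9:21962605-21962705: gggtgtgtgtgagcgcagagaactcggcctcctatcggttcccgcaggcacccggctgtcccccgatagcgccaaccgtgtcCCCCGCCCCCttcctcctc
Epor, upstream promoter, chr9:21963586-21963686: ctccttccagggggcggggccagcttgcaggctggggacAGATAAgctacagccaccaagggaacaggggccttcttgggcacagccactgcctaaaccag
Kit, distal upstream, chr5:75460601-75460701: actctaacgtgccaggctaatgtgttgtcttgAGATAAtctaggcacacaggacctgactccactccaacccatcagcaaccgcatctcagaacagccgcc
Kit, distal downstream, chr5:75762057-75762157: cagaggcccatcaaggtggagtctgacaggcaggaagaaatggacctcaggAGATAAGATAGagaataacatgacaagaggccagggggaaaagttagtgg
Jak2, upstream, chr19:29203516-29203616: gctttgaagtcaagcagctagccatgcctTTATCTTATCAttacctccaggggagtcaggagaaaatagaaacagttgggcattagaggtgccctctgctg
Stat5a and Stat5b, in an intron of Stat3, chr11:100891715-100891815: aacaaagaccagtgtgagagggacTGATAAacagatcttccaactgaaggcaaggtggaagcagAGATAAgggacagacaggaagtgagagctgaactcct
Bcl2l1, strongest intronic peak, chr2:152814350-152814450: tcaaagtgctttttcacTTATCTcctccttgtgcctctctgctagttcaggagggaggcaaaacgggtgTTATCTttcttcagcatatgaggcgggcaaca
Pim1, downstream, chr17:29499712-29499812: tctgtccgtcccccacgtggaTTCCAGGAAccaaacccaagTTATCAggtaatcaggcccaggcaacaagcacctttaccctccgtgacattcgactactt
Cish, first pair of GAS sites, chr9:107296654-107296683: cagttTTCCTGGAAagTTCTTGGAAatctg
Cish, second pair of GAS sites, chr9:107296762-107296791: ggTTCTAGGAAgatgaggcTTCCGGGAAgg

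Each library had a deposited list of 300000 peaks, as did the pooled libraries, and read totals are not given, so depth is unknown. Signals are those the authors deposited. Each list has its own scale, so peaks were ranked only against others of the same list. Where log2 ratios of the 2 libraries' signals are given below, the signals were not rescaled. In the optimal list the signal had a median of 38.5. As a check of the tissue, all 7 annotated genes of a list of 8 erythroid markers had a peak among the top 10% of the optimal list by signal (at least 169.9) within 50 kb, as did none of 8 hepatocyte markers, 6 of which had a weaker peak. Of all protein-coding genes, 12.4% had a top 10% peak by the 50 kb rule and 54.4% had any peak. Top 10% peaks also stood by 2 of 5 megakaryocyte, 1 of 5 endothelial and 1 of 6 mast cell and granulocyte markers (Ltf, 253.1). The 5 macrophage markers and the 6 markers of stem cells and progenitors had none of that strength. With peaks of any strength counted, the mast cell and granulocyte group reached 4 of 6, and its mast cell genes Cpa3 and Fcer1a had none. The other 4 of these groups each had 3 genes with any peak. In a bulk tissue, binding in fewer cells and weaker binding per cell cannot be told apart, and a peak does not name the cell type it came from.

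All 10 genes had at least 1 optimal peak, against 54.4% of all protein-coding genes by the same rule with the 50 kb window and 73.5% with the 150 kb window used for Kit. The number of peaks ran from 2 at Epor and at Lyn to 12 at Bcl2l1. With the 50 kb window for all 10, the median was 4 peaks per gene, against 1 over all protein-coding genes. Of the 10 genes, 6, namely Epor, Kit, Stat5a, Stat5b, Bcl2l1 and Pim1, had a peak in the top 10%. Leaving out Kit, this was 5 of 9 genes, against 12.4% of all protein-coding genes, and Stat5a and Stat5b share theirs; the strong peak of Kit lay beyond 50 kb, and 26% of genes had one within 150 kb. The 50 peaks had a median signal of 51.1, against 38.5 over all optimal peaks on the chromosomes, and ranged from 13.8 to 320.3. The genes were chosen with results of these data known, so the values are a description and no test was made.

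**Figure D1:**
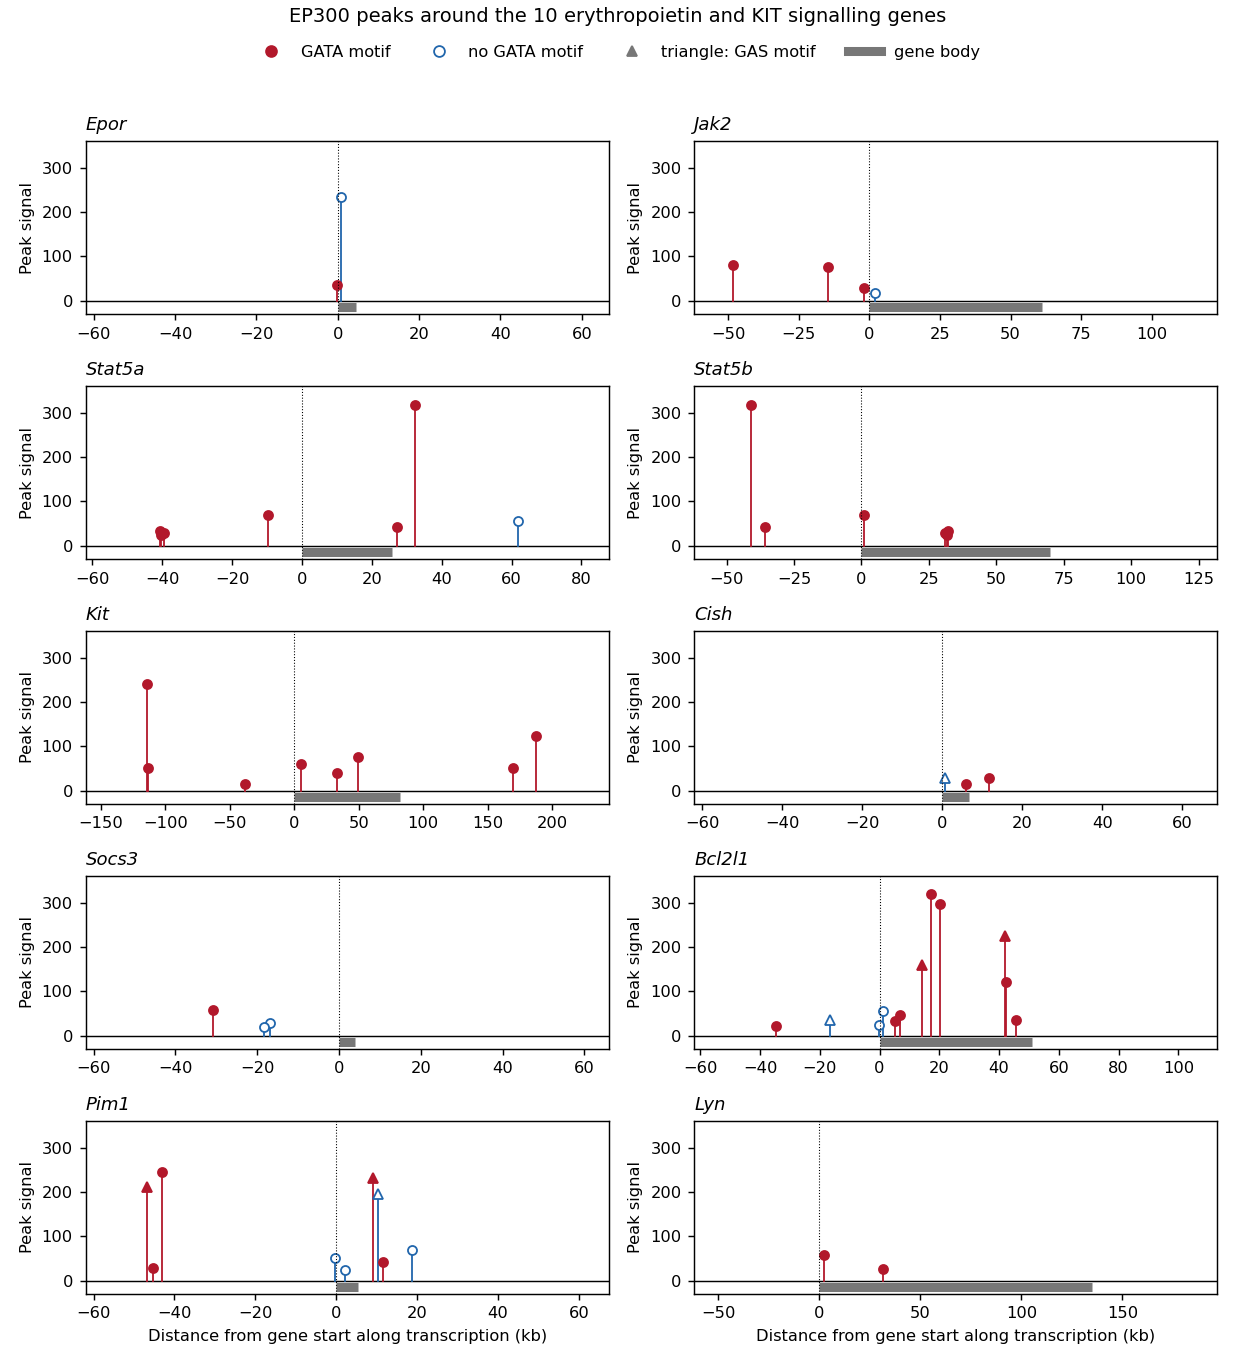
Optimal EP300 peaks around each of the 10 genes: horizontal axis, distance of the summit from the gene's start along the direction of transcription (kb); vertical axis, peak signal. Filled red symbols have a GATA motif within 100 bp, open blue symbols have none, triangles have a GAS motif, and the grey bar is the gene body; strong peaks of 194.3 or more stand at Epor, Stat5a and Stat5b (the same peak), Kit, Bcl2l1 and Pim1.

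**Figure D2:**
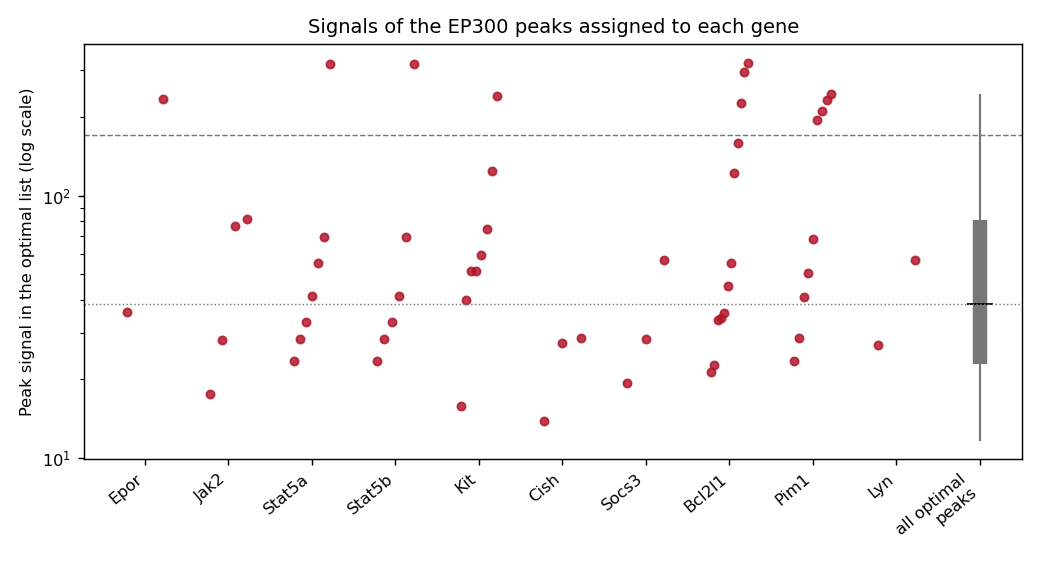
Signal in the optimal list (log scale) of every peak assigned to each gene, beside all optimal peaks, for which the thick bar is the interquartile range, the thin line runs from percentile 5 to 95 and the tick is the median. The dashed line marks the lowest signal of the top 10% (169.9) and the dotted line the median of 38.5. Epor, Stat5a, Stat5b, Kit, Bcl2l1 and Pim1 span both lines, and the 3 Cish peaks all lie under the median.

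Epor, on chromosome 9 from 21958897 to 21963506, had both of its peaks at its start and none elsewhere: the next optimal summit outside its window lay 107617 bp away. The stronger, from 21962542 to 21962773, had a signal of 233.6 (rank 932 in the optimal list). It lay in an intron of the longer transcript, 851 bp downstream of the gene's start and 91 bp upstream of a second annotated TSS. Its signal was 136.0 in replicate 1 (rank 632) and 97.6 in replicate 2 (rank 1414). No GATA motif as defined here lay within 100 bp of this summit, which had a GC content of 66.7% and 3 CACC boxes. The printed sequence does hold the letters GATA on each strand. In both places C comes before them, which the motif does not allow, so they are not counted. Of all optimal peaks in the top 10%, 94.7% had a GATA motif.

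The weaker Epor peak lay over the upstream promoter, from 21963466 to 21963805, with its summit 130 bp before the first TSS. Its signal was 36.0 in the optimal list, 23.8 in replicate 1 (rank 7073) and 18.4 in replicate 2 (rank 9481). Within 100 bp of its summit it had 1 GATA motif, the AGATAA printed above, 119 to 124 bp upstream of the TSS, with its centre 8.5 bp from the summit. It also had 4 CACC boxes within 100 bp, against 3 at the stronger peak. Those of the weaker peak are not in capitals above. A GATA site and a CACC-type site in the upstream promoter are known elements of the Epor gene. In both libraries the peak without a GATA motif as defined here was the stronger of the 2.

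Kit, on chromosome 5 from 75574916 to 75656722, had 8 peaks, and all 8 had a GATA motif, against 86.3% of all optimal peaks away from promoters. None of them lay within 1 kb of a Kit TSS. The strongest was 114265 bp upstream of the first TSS, from 75460517 to 75460800, with a signal of 239.9 (rank 876), 125.4 in replicate 1 (rank 773) and 112.3 in replicate 2 (rank 1077). A distal upstream enhancer of Kit that is occupied by GATA2 and then GATA1 is known from erythroid cell lines, at about this distance. A second peak of 51.4 stood close by, 113339 bp upstream, with 25.4 in replicate 1 and 25.6 in replicate 2.

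Downstream of Kit the strongest peak had a signal of 124.2 and lay from 75762024 to 75762201, 187191 bp from the gene's start and 112914 bp past the last annotated TSS. It had signals of 66.2 in replicate 1 (rank 2363) and 57.1 in replicate 2 (rank 3027), and its 2 GATA motifs overlap by a single base, as the capitals show. A further downstream peak of 51.6 lay 169949 bp from the gene's start and held 7 CACC boxes. For both, Kit was the nearest protein-coding gene. Between these ends, 3 intronic peaks had signals of 74.8, 59.4 and 39.9 at 49573, 5125 and 33241 bp from the gene's start. The intronic peak at 49573 bp ranked higher in replicate 1 (signal 47.2, rank 3556) than in replicate 2 (signal 25.0, rank 7083). The weakest Kit peak, of 15.8 at 38490 bp upstream, had no replicate 2 summit within 100 bp; the nearest was 1625 bp away. With a 50 kb window, 4 of the 8 Kit peaks would remain.

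Jak2, on chromosome 19 from 29251828 to 29313080, encodes the kinase that starts the response to erythropoietin. It had 4 peaks, whose signals in the optimal list were higher with distance upstream within the window. In replicate 2 the 2 farthest stood in the reverse order. The farthest, 48262 bp upstream, had a signal of 81.3 (37.9 in replicate 1, 42.4 in replicate 2), and the next, 14721 bp upstream, 76.5 (31.6 and 48.1). The peak 1723 bp upstream had a signal of 28.1 (15.7 and 12.4), and that in the first part of the gene 17.5 (5.66 and 4.12). Both distal peaks had 2 GATA motifs and 1 composite in which an E-box core precedes the GATA motif, a pairing bound by TAL1 and GATA1 together (CTG, 7 or 8 bases, then the GATA motif). The last of the 4 had no GATA motif, and its summits ranked 54346 in replicate 1 and 185530 in replicate 2. Just past the edge of the window, a peak of 66.8 lay 55450 bp from a TSS with Jak2 as its nearest coding gene.

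Lyn, on chromosome 4 from 3678115 to 3813122, encodes a Src-family kinase that acts downstream of both receptors. Its 2 peaks were intronic and each had a GATA motif. The peak 2213 bp from the nearest TSS had a signal of 56.8, with 19.2 in replicate 1 (rank 8634) and 35.8 in replicate 2 (rank 5006). The other, 31369 bp from the nearest TSS, had a signal of 26.8, with 14.2 in replicate 1 and 12.2 in replicate 2. Neither was in the top 10%.

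Stat5a and Stat5b lie side by side on chromosome 11, so 6 of the 7 peaks of this locus fall in the windows of both genes. The strongest, from 100891631 to 100891902, had a signal of 318.3 (rank 387), with 153.4 in replicate 1 (rank 442) and 165.6 in replicate 2 (rank 334). It lay in an intron of the neighbouring gene Stat3, 1453 bp from a Stat3 TSS, 12746 bp from the nearest Stat5a TSS and 41041 bp from the nearest Stat5b TSS. It held 2 GATA motifs, at 16.5 and 23.5 bp from the summit, and the window cannot say which of the 3 STAT genes the peak belongs to. Stat5b had 1 promoter peak, of 69.5, with 35.4 in replicate 1 and 34.9 in replicate 2. A group of 3 peaks, of 33.0, 28.5 and 23.5, lay within 3977 bp of an internal Stat5b TSS. No optimal summit lay inside Stat5a or within 1 kb of its TSSs, and for none of the 7 peaks was Stat5a the nearest coding gene.

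Bcl2l1 encodes BCL-XL, which keeps erythroblasts alive late in maturation. It had 12 peaks, the most of the 10 genes and more than 98.97% of all protein-coding genes had in the same window; 9 of them lay inside the gene, on chromosome 2 from 152780668 to 152831728. The 5 strongest were intronic. The first, 17328 bp from the gene's start, had a signal of 320.3 (rank 376), with 146.3 in replicate 1 (rank 521) and 174.8 in replicate 2 (rank 251). The second, at 20338 bp, had a signal of 296.7 (rank 494), with 146.9 in replicate 1 (rank 515) and 150.4 in replicate 2 (rank 492). The third, at 42039 bp, had a signal of 224.4 (rank 1023), with 117.7 in replicate 1 and 107.7 in replicate 2. It stood beside the fifth, of 121.8 at 42479 bp, and for both the nearest coding TSS was that of Cox4i2. The fourth, of 158.8, had 81.9 in replicate 1 and 81.1 in replicate 2. All 5 had a GATA motif.

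The third and the fourth of these Bcl2l1 peaks also held GAS sites, 2 and 1 within 100 bp. The 2 peaks at the Bcl2l1 promoter were weaker, at 55.1 and 22.7, and neither had a GATA motif. The peak of 55.1 had signals of 17.8 in replicate 1 and 34.3 in replicate 2. The peak of 22.7 had 6.00 in replicate 1 (rank 43867) and 16.8 in replicate 2 (rank 10268). The mitotic spindle gene Tpx2 held 2 further peaks, at its promoter (34.0, with 1 GAS site) and in its intron (21.3).

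Pim1 encodes a serine/threonine kinase induced by STAT5. The gene, on chromosome 17 from 29490753 to 29496112, had 9 peaks, more than 97.26% of all protein-coding genes had, and its 4 strong ones stood as 2 pairs. Upstream, a peak of 244.5 (rank 838; 128.2 in replicate 1 and 115.7 in replicate 2) lay 43198 bp from the gene's start, and one of 210.8 (rank 1166; 95.8 and 118.1) lay at 46828 bp, both in introns of the long noncoding RNA gene AC163629.2. Downstream, a peak of 230.5 (rank 966; 120.7 and 110.0) lay 9009 bp from the gene's start and one of 194.3 (rank 1339; 103.7 and 90.7) at 10225 bp. All 4 had Pim1 as the nearest protein-coding gene. All but the one of 244.5 had a GAS site within 100 bp; in the downstream peak printed above it lay 25 bp from the summit and the GATA motif 6.5 bp from it. The peak of 194.3 had a GAS site and no GATA motif. Past the edge of the window, a further peak of 212.7 lay 52131 bp from a Pim1 TSS, again with Pim1 as the nearest coding gene.

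Close to Pim1 TSSs, a first summit lay 315 bp before the gene's start, with a signal of 50.8. A second, of 23.4, lay inside the gene, 2110 bp from its start and 174 bp before an internal TSS. Neither had a GATA motif. The first of these had a summit within 100 bp in replicate 1 (14.8, rank 10980) and none in replicate 2, whose nearest summit was 156 bp away with a signal of 23.2 (rank 7614).

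Cish encodes a feedback inhibitor that is itself induced by STAT5 and binds the activated receptor. On chromosome 9 from 107296026 to 107302784, it had 3 peaks, all of low signal: 28.7, 27.5 and 13.8. The first, at the promoter, had its summit 19 bp before an annotated TSS and held 4 GAS sites within 100 bp and no GATA motif. Of all 17043 optimal peaks, 2 (0.0117%) held 4 GAS sites; the other, with a signal of 63.2, was at the promoter of Gm37419. The Cish sites stood in 2 pairs, the first centred 28 and 17 bp from the summit and the second 77 and 94 bp from it on the other side, within annotated exon sequence and outside the coding sequence. STAT5 sites in the Cish promoter are known from work on erythropoietin and other cytokines. In replicate 2 the promoter summit had a signal of 15.1 (rank 11328). Replicate 1 had no summit within 100 bp, but one at 116 bp with a signal of 25.8 (rank 6559). Only 1 GAS site lay within 100 bp of that replicate 1 summit, against 4 for the replicate 2 summit. The count of 4 thus depends on which summit is taken.

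In RefSeq promoter windows (GRCm38.p6, 250 bases before to 50 after each start), which matched 9 of the 10 genes, all but Lyn, the Cish window held 2 GAS sites. Of 32851 such windows, 0.457% held 2 or more and 8.30% held at least 1. Among the other matched genes, Socs3 had 1 site in its window and the remaining 7 had none.

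Socs3, on chromosome 11 from 117966079 to 117970047, encodes a second feedback inhibitor of cytokine receptors. It had 3 peaks in its window, and all 3 lay in Pgs1, a neighbouring gene of phospholipid synthesis, from 16779 to 30726 bp upstream. The strongest, 22 bp from a Pgs1 TSS, had the largest log2 ratio of signals between the libraries among the 46 peaks found in both: its signal was 57 in the optimal list, 41.4 in replicate 1 (rank 4113) and 10.1 in replicate 2 (rank 16963). The other 2 had signals of 28.4 (12.1 in replicate 1, 13.1 in replicate 2) and 19.3 (10.9 and 8.89). At the Socs3 promoter the pooled list had a summit 54 bp from a TSS with 1 GAS site and a signal of 24.2 (rank 12805). It is in neither the optimal nor the conservative list; the strongest summit within 1 kb ranked 9443 in replicate 1 (17.5) and 111281 in replicate 2 (4.84).

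Of the 10 genes, 5 had a peak at their own promoter, with the summit no more than 1 kb from a TSS (Epor, Stat5b, Cish, Bcl2l1 and Pim1), against 15.5% of all protein-coding genes. For Jak2, Stat5a, Kit, Socs3 and Lyn, the optimal list had none there. In the pooled list the strongest summits within 1 kb of their TSSs ranked 14103 for Jak2 (21.6), 118290 for Stat5a (6.90), 94072 for Kit (7.37) and 98886 for Lyn (7.25). The 8 peaks at the genes' own promoters had a GATA motif in 2 cases, an ETS motif (CGGAAG) in 4 and a CACC box in 5. Of the 13 peaks at any promoter, 5 (38.5%) had a GATA motif, against 42.1% of all promoter peaks. The ETS motif lay at 5 of the 13 (38.5%, 17.7 to 64.5), against 18% of all promoter peaks, and a CACC box at 7 (53.8%, 29.1 to 76.8), against 39.1%.

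By position the 50 peaks were spread like the whole list. Promoters held 26% (95% Wilson interval 15.9 to 39.6), against 26.2% of all optimal peaks, introns 46.0% against 44.2%, and intergenic sequence 26% against 25.7%. For 38 of the 50, the nearest coding TSS belonged to 1 of the 10 genes. Of the 10 peaks in the top 10%, 9 were away from promoters (90%, 59.6 to 98.2), against 83.5% of all peaks in that class, and 1, at Epor, was not. Most bases around the summit were repeat-masked at 1 peak (2.00%), against 4.14% of all.

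Over the 50 peaks together the GATA motif had about the same share as in the whole optimal list, and GAS motifs were found at peaks in the windows of Bcl2l1, Pim1 and Cish. A GATA motif lay within 100 bp of 37 of the 50 summits (74.0%, 60.4 to 84.1), against 74.7% of all optimal peaks. Away from promoters it was 32 of 37 (86.5%), against 86.3%. The motif was close to the summit, at a median of 16.5 bp against 17.5 bp over all peaks with one. At least 2 GATA motifs lay at 18 summits (36.0%), against 41.9%. In the top 10% of peaks, 8 of 10 had the motif (80%, 49.0 to 94.3), against 94.7% of all peaks in that class. Below it the motif was at 29 of 40 (72.5%), against 72.5% of all. A GAS motif (both strands, which read alike) lay at 7 of the 50 summits (14%, 6.95 to 26.2), against 6.74% of all optimal peaks, 7.04% of those away from promoters and 5.88% of those at promoters. A GAS motif without a GATA motif was seen at 3 of the 50 summits (6%, 2.06 to 16.2), against 1.55% of all optimal peaks: the Cish promoter, the Tpx2 promoter and the downstream Pim1 peak of 194.3. All 7 were among the 27 peaks in the windows of Cish, Socs3, Bcl2l1 and Pim1, none of them at Socs3 (25.9%, 13.2 to 44.7), and none among the 23 peaks of the receptor, kinase and STAT5 genes, where a count of 0 allows up to 13.0% (3 counts of 23, not a Wilson limit). This division by role was made after the values were seen, and the weak summit at the Kit promoter in the pooled list, which is not an optimal peak, also had 1 GAS motif. Of the 10 peaks in the top 10%, 4 had a GAS motif (40%, 16.8 to 68.7), against 7.57% of all peaks in that class. Those of 230.5, 210.8 and 194.3 were at Pim1 and that of 224.4 at Bcl2l1. Neighbouring peaks of the same gene may not be independent, which the intervals here do not allow for.

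**Figure D3:**
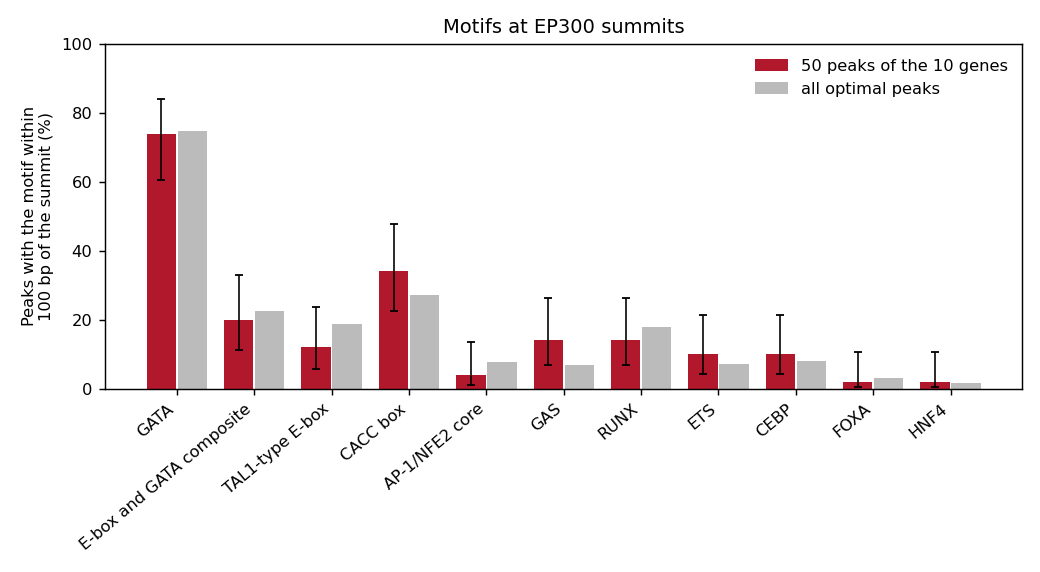
Percent of peaks with each of 11 motifs within 100 bp of the summit, for the 50 peaks of the 10 genes (red, with 95% Wilson intervals) and for all 17043 optimal peaks (grey). GATA stood at 74.0% and 74.7%, and GAS at 14% and 6.74%.

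Other motifs were near their share in the whole list. The composite lay at 10 summits (20%, against 22.4%), a CACC box at 17 (34.0%, against 27.2%), the RUNX motif TGTGGT at 7 (14%, against 17.9%), the ETS motif at 5 (10%, against 7.24%) and the TAL1-type E-box CAGATG at 6 (12%, against 18.7%). The AP-1 and NFE2 core TGANTCA lay at 2 (4%, against 7.58%), at Pim1 and at the Pgs1 promoter. Of the motifs of hepatocyte factors, CEBP (TTGCNNAA) lay at 5 (10%, against 8.06%), FOXA (TGTTTAC) at 1 (2.00%, against 3.17%) and HNF4 (CAAAGNCCA) at 1 (2.00%, against 1.48%). All intervals cover counting error only, and a match names letters, not a bound factor.

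Both libraries had a summit within 100 bp of 46 of the 50 peaks (92.0%, 81.2 to 96.8), against 84.3% of all optimal peaks. The 10 peaks in the top 10% ranked between 442 and 1343 in replicate 1 and between 251 and 1589 in replicate 2. At Cish 2 peaks had no replicate 1 summit that close, and 2 others, at Kit and at the Pim1 promoter, no replicate 2 summit. On the log2 scale, the ratio of the replicate 1 to the replicate 2 signal ran from −1.21 to 1.03 between percentiles 5 and 95 of all peaks found in both. Of the 46, 3 lay outside this range, the strongest peak of the Socs3 window (2.03), the weaker Bcl2l1 promoter peak (−1.48) and the Tpx2 intron peak (−1.52). The conservative list held 44 of the 50 peaks (88.0%), against 78.4% of the optimal list. It had 53 peaks in these windows, some of them not in the optimal list. Of the 50 optimal peaks, 41 had the highest score of 1000 (82%), against 69.5%.

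**Figure D4:**
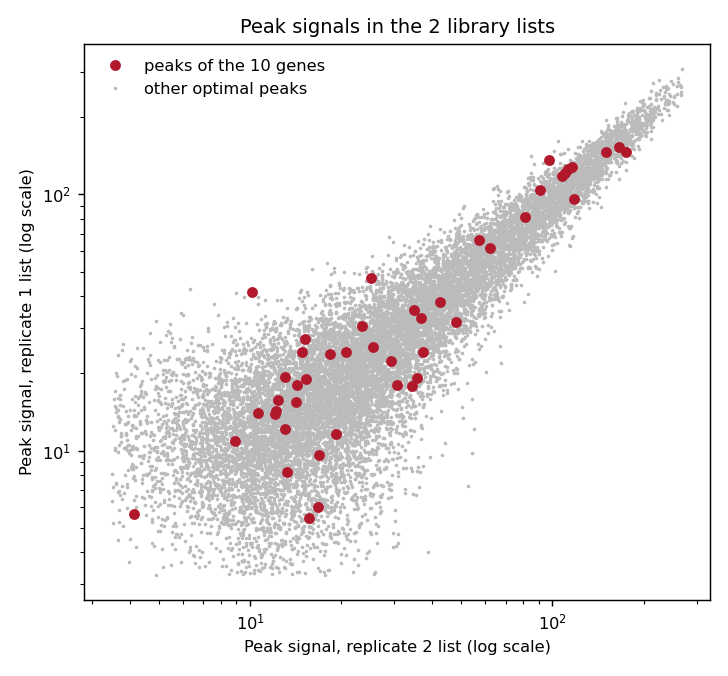
Peak signal in the replicate 1 list against that in the replicate 2 list (both log scale) for the 46 peaks of the 10 genes found in both libraries (red) and for the other optimal peaks found in both (grey). The red points lie within the grey cloud, and the point at 41.4 in replicate 1 and 10.1 in replicate 2 is the strongest peak of the Socs3 window.

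A wider list of 86 other genes of these pathways was taken in the same way with the 50 kb window. A peak lay near 65 of them, against 54.4% of all protein-coding genes, with a median of 2 peaks per gene; 12 of 86 had a peak in the top 10%, against 12.4%. Of 12 receptors and ligands, 9 had a peak. The strongest were near Thpo, the thrombopoietin gene (233.1, in an intron of Clcn2), near Csf2rb2, a mouse interleukin 3 receptor chain (221.3, nearest to Ncf4), and near Epo itself (172.7). The last was the promoter peak of Tfr2, which encodes an iron sensor that associates with EPOR. Kitl, the gene of the KIT ligand, and Il3ra had none within 50 kb.

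Among 21 kinases 14 had a peak, led by the phosphoinositide 3-kinase subunit gene Pik3r1 (197.2), Jak1 (109.8) and Map2k1 (100.9, at the promoter of Tipin), and Akt1 and Fes had none. Among 17 adaptors 14 had one, led by Gab2 (177.2, intron), Grb10 (145.2, intron) and Dok1 (142.1, in M1ap), and Plcg1 and Plcg2 had none. Among 18 inhibitors 11 had one. The strongest were near Ptpn11 (391.6, nearest to Hectd4), in an intron of Inpp5d (312.4) and in an exon of Spred2 (104.5). Inpp5d encodes the lipid phosphatase SHIP1. Pias3 had no peak. Stat3, on the list as a further STAT gene, had the peak of 318.3 shared with Stat5a and Stat5b as its strongest. Of 15 further target genes 14 had a peak, the strongest near Ccnd3, the cyclin D3 gene (282.5), Bcl2l11, which encodes the cell death protein BIM (260.9), and Mcl1 (127.6). Serpina3g had none.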

How the data were processed

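EP300 ChIP-seq was measured in 2 libraries of 1 group. The deposited file listings name filtered alignments and a control file behind each library's peaks, and both libraries and controls behind the pooled peaks, on mm10. The authors drew the optimal and conservative lists from these 3 lists and 1 further file, per the same listings. Caller and cutoff: not given in the sources used here. The authors' signal column has a scale of its own in each list, and optimal peaks carry their pooled signal. The score, as deposited by the authors, is a whole number up to 1000. No depth is given.

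Summits were set on GENCODE vM21 genes, and sequence came from RefSeq's GRCm38.p6, the build of mm10. A library had a peak when a summit of its list lay within 100 bp. Motif counts took 100 bp on each side of a summit and either strand, and a promoter was within 1 kb of any TSS. Intervals are 95% Wilson intervals. The assignment, matching and motif steps were tested on simulated data. Python 3.11.15 with pandas 2.3.3 was used. The 10 genes, the other lists and the motifs were chosen with earlier results of these data known, so no list was tested. Of the wider list, the 3 genes with the strongest peak and up to 2 without one were named per group. A few items, including 1 sequence, are not reported here. Alternatives were other peak lists, windows, assignments and distances.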

Additional observations from a re-analysis of the deposited data

How the results depend on the processing

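All 10 genes kept a peak in the conservative list, in the top of the pooled list, in each library alone and with windows of 20 and 100 kb. Cish lost its peaks when only optimal peaks at or above the median signal were taken, which left 30 peaks in place of 50 with a median signal of 75.7, and counting only peaks whose nearest coding TSS was that of 1 of the 10 genes left none for Stat5a and Socs3 themselves. Leaving out a library, with as many top peaks of the other, gave 57 to 65 peaks. It gave a median signal of 16.8 to 22.3, on the libraries' own scales. The share of these found in both libraries was 76.9% to 82.5%, and the lower value, without replicate 1, was under the interval of the reported 92.0%. With library summits within 250 bp the share found in both was 98.0%, and with a promoter window of 2500 bp the promoter share was 46.0%; both follow from the wider distance. The GATA share stayed between 63.2% and 80.0% over all alternatives run. No paired analysis was possible because the series has 1 group. Read depth is not given, so whether weak or missing peaks, such as those at Cish and Socs3, reflect depth was not tested.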

Other observations

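The conservative list held peaks in these windows that the optimal list did not. They were a Bcl2l1 promoter peak of 16.0 at 360 bp from a TSS, a peak of 23.8 inside Bcl2l1 and one of 14.8 near Tpx2. At Pim1 there were 2 promoter peaks of 17.4 and 13.3 and a downstream peak of 48.3 nearest to Gm17657. Single peaks lay at the Jak2 start (21.6, 903 bp from a TSS), near Stat5a and Stat5b (12.1, nearest to Stat3) and 23523 bp upstream of Cish (19.2). With these, Jak2 would also have a peak within 1 kb of a TSS.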
